A study of Mus musculus with 9 samples.

Results

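Fractalkine (Cx3cl1) and its receptor (Cx3cr1) are a chemokine and receptor pair through which neurons signal to microglia. The members were chosen by gene symbol, with the rule that a symbol listed more than once is represented by its row of highest mean count. Each symbol had exactly 1 row, so mean counts did not decide between rows. The pair itself was proposed with earlier results of these data known, so its p-values and ranks are no independent evidence. It makes up 2 of the 55385 genes in the deposited table. Both genes passed the filter on low values that left 16982 genes for testing. The 9 libraries came from hemispheres of male C57BL/6 mice aged 8 to 10 weeks and fall into 3 groups of 3. Sham mice had the neck surgery without closure of the artery. Libraries named tMCAO come from a filament model of ischaemic stroke, transient middle cerebral artery occlusion, with the vessel closed for 90 min and then reopened. Mice of the celastrol group were occluded in the same way and then given this triterpenoid of thunder god vine at 4.5 mg/kg into the peritoneum when flow returned. No occluded group is described as having been given vehicle, and neither the time from reperfusion to sampling nor the number of animals behind a library is given in the sources used here. The p-values therefore measure the spread between these libraries, which may in part be technical.

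Fractalkine is made as a membrane protein with its chemokine domain held out on a mucin stalk, and in the brain neurons are its main source. The stalk can be cut by the metalloproteases ADAM10 and ADAM17 and by cathepsin S, which frees a soluble form. The receptor couples to inhibitory G proteins and is carried by microglia, by patrolling (non-classical) monocytes and by some natural killer and T cells. In resting brain the pair is known for restraining microglial activation.

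The pair owes its name to the spacing of cysteines at the start of the chemokine domain, and that stretch of coding sequence is shown because it identifies the ligand. The receptor stretch carries the aspartate, arginine and tyrosine codons typical of receptors that couple to G proteins. Both are coding sequences of the GENCODE M21 transcripts, with the 2 cysteine codons (codons 32 and 36 of 395, counted from the start codon) in capitals in the ligand and codons 127 to 129 of 354 in capitals in the receptor. In a search of each reading frame for these patterns, each occurred 1 time.
Cx3cl1: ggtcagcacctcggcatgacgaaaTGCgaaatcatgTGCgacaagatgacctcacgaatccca
Cx3cr1: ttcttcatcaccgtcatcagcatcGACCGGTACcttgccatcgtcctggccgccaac

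Cx3cl1 (ENSMUSG00000031778) lies on the plus strand at chr8:94772009-94782427 (GRCm38/mm10), and no exon of another gene falls within it. Cx3cr1 (ENSMUSG00000052336) lies on the minus strand at chr9:119901616-120068296. One of its 3 annotated transcripts spans 166.7 kb, the others 19.6 and 21.2 kb, so that 9 other genes have exons inside the span of Cx3cr1. Exons of Cx3cr1 itself overlap those of 1 gene, Gm33858, on the opposite strand. Whether the counting used strand is not stated, so reads of Cx3cr1 and Gm33858 may not have been told apart.

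Each library held 60392960 to 75158625 estimated counts. On the first principal component of all genes tested, which carried 31.0% of the variance, sham ran from -58.7 to -25.8 and tMCAO from 17.0 to 58.1. Celastrol replicate 2, at -23.2, stood apart from the other celastrol libraries (20.3 and 44.1). Marker sums also showed uneven tissue. The summed level of 9 striatal markers was 1581 CPM (counts scaled to library size and composition) in sham replicate 3 and 904 in tMCAO replicate 3, against 189 to 543 elsewhere. The sum of 5 choroid plexus markers ranged from 7.4 to 1792 CPM, the sum of 7 thalamic markers from 55.7 to 481.5 CPM. The occluded libraries carried the reactive astrocyte response, with 5 markers summing to 1143 to 2277 CPM in tMCAO and 621 to 1930 CPM under celastrol, against 155 to 329 CPM in sham.

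Cx3cl1 was abundant in sham and celastrol libraries and about 10-fold lower in the 3 tMCAO libraries, with 1 sham library as an exception. In sham it stood at 648, 933 and 128 CPM in replicates 1, 2 and 3. In tMCAO the 3 libraries gave 38.8, 56.1 and 64.4 CPM. With celastrol they gave 339, 708 and 560 CPM. All 3 tMCAO libraries lay below every sham and every celastrol library, and sham replicate 3 lay between the tMCAO range and the lowest celastrol library. Per transcript length the same libraries held 144, 199 and 27.6 FPKM in sham, 8.92, 12.8 and 15.3 FPKM in tMCAO and 79.9, 151 and 127 FPKM with celastrol. Between 2843 and 55233 counts stood behind each of these values, which puts the counting error of a library at no more than 1.88%, far below the differences between replicates.

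**Figure D1:**
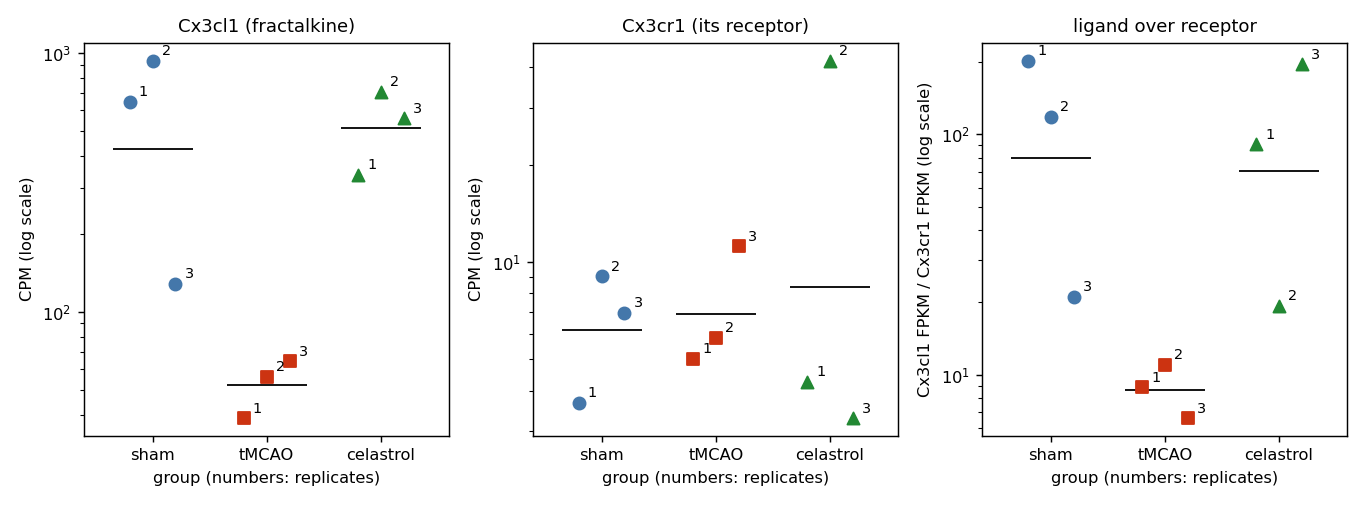
CPM of Cx3cl1 (left) and Cx3cr1 (middle) and the ratio of their FPKM values (right) in each of the 9 libraries on log axes, numbered by replicate within sham, tMCAO and celastrol, with the horizontal bars at the geometric mean of each group. The 3 tMCAO libraries hold the lowest Cx3cl1 values, sham replicate 3 falls to 128 CPM, and celastrol replicate 2 stands alone in Cx3cr1 at 42.0 CPM.

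Group means of Cx3cl1 were 570 ± 408 CPM in sham, 536 ± 186 CPM with celastrol and 53.1 ± 13.01 CPM in tMCAO (mean ± SD, n = 3 each). Sham and celastrol, neighbours in this order, overlapped and did not differ beyond their spread, whereas tMCAO overlapped neither. For tMCAO against sham, edgeR's quasi-likelihood test on all genes gave a log2 fold change of -3.42 ± 0.64 (SE), a 10.7-fold lower group level, with 3 of 3 libraries below every sham library. Its p was 0.00051 before and 0.106 after Benjamini-Hochberg adjustment over the 16982 genes, so the difference did not pass the threshold of 0.05. The background to read this against is wide. edgeR called 0% of genes at that threshold in this comparison, 14.9% of genes had an unadjusted p under 0.05 (2534 genes), and in 11.1% of genes all tMCAO libraries lay below all sham libraries, as they did for Cx3cl1. DESeq2 on the same counts, which called 836 genes (4.93%), gave -3.43 ± 0.55 with an adjusted p of 2.67e-07. Over all 20 alternatives the adjusted p ran from 2.67e-07 to 0.378. Without sham replicate 3 the edgeR estimate was -3.90 ± 0.35 with an adjusted p of 0.047, which passed.

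Celastrol against tMCAO shares the 3 tMCAO libraries with the comparison above, so that low values in them enter both. Here Cx3cl1 had a log2 fold change of 3.33 ± 0.64 (SE), a 10.1-fold higher group level, with 3 of 3 libraries above every tMCAO library. The edgeR p was 0.000595, at rank 6 of all genes, and 0.976 after adjustment. edgeR called 0% of genes in this comparison, where 4.11% of genes (698) had an unadjusted p under 0.05, and in 3.73% of genes all celastrol libraries lay above all tMCAO libraries. DESeq2 called 19 genes (0.114%), among them Cx3cl1 at rank 2 with 3.34 ± 0.55 and an adjusted p of 1.51e-05. Over the 20 alternatives the estimate stayed between 3.08 and 3.57 and the adjusted p between 1.51e-05 and 0.9999.

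Celastrol against sham gave -0.09 ± 0.58 for Cx3cl1 (edgeR adjusted p = 0.979), with groups that overlapped. In this comparison edgeR called 1 gene (0.00589%), neither of the pair, and DESeq2 called 2.33% of genes. An unadjusted p under 0.05 was reached by 8.51% of genes, and groups without overlap by 7.89% (celastrol higher) and 5.54% (celastrol lower). Without sham replicate 3 the estimate was -0.56, without sham replicate 2 it was 0.46, and without celastrol replicate 1 it was 0.15, so the sign of this small difference was not stable. The SE of 0.58 leaves room for a difference of that size in either direction.

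Cx3cr1 was far less abundant than its ligand and showed no difference between groups beyond the spread of the libraries. Sham libraries held 3.67, 9.06 and 6.97 CPM and tMCAO libraries 5.03, 5.84 and 11.2 CPM. With celastrol the values were 4.27, 42.0 and 3.30 CPM. The 42.0 CPM of celastrol replicate 2 is the highest of the 9 and the other celastrol libraries are among the 3 lowest, so that every pair of groups overlapped. Per length, Cx3cr1 stood at 1.23 ± 0.49 FPKM in sham, 1.49 ± 0.71 in tMCAO and 3.10 ± 4.05 with celastrol (mean ± SD, n = 3 each). The same libraries averaged 12.7 FPKM for Csf1r, the receptor for colony stimulating factor 1 on microglia.

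In edgeR's test, Cx3cr1 gave log2 fold changes of 0.16 ± 0.88 for tMCAO against sham (adjusted p = 0.951), 1.17 ± 0.89 for celastrol against tMCAO (adjusted p = 0.976) and 1.33 ± 0.90 for celastrol against sham (adjusted p = 0.752). The last pair of values share the celastrol libraries and rest on replicate 2. Without that library they were -0.96 ± 0.48 and -0.79 ± 0.47, of the opposite sign, and in neither case did the adjusted p pass. The wide SE of tMCAO against sham came with the same library, since it is estimated over all groups. Without celastrol replicate 2 that difference was 0.16 ± 0.41, and in a fit of only the sham and tMCAO libraries 0.16 ± 0.43. A missed threshold at these errors does not show equal levels.

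The ratio of ligand to receptor, taken from FPKM, was 203, 118 and 21.1 in sham, 8.87, 11.01 and 6.60 in tMCAO and 91.1, 19.3 and 195 with celastrol. All tMCAO ratios were lower than the other 6. The low sham ratio belongs to replicate 3, where the ligand was low, and the low celastrol ratio to replicate 2, where the receptor was high. Across the 9 libraries the 2 genes showed little relation in log2 CPM (Pearson r 0.14, Spearman rho 0.12, given as a description since the libraries share groups).

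Fewer cells of a type and less RNA per cell cannot be told apart in bulk hemisphere tissue, so both genes were also set against markers of the cells that carry them. A list of 11 general neuron markers, among them the synaptic genes Snap25, Syt1 and Syn1, summed to 7898 to 8703 CPM in sham, 6319 to 7269 in tMCAO and 6466 to 9851 with celastrol. Of these 11 genes, 10 had a negative fold change in tMCAO against sham, with a median log2 of -0.34 against 0.01 over all genes tested, and in 4 the tMCAO libraries lay wholly below sham, against 11.1% of all genes. As a share of that sum, Cx3cl1 was 8.20%, 10.7% and 1.56% in the sham libraries, 0.547%, 0.771% and 1.02% in tMCAO and 5.24%, 7.19% and 8.35% with celastrol. The tMCAO libraries were again lowest by this share. Snap25 (2787 CPM) and Syt1 (1983 CPM) weighed most in the sum, which averaged 8274 CPM in sham. Excitatory neuron markers summed to 3796 to 5618 CPM in sham and 3168 to 3553 in tMCAO, inhibitory ones to 948 to 1153 and 904 to 1177. With celastrol the excitatory sum was 3449, 6805 and 3205 CPM in replicates 1, 2 and 3, with replicate 2 the highest of the 9 libraries. The inhibitory sum was 848 to 1108 CPM with celastrol. The part of neuron loss in the Cx3cl1 level was not tested. Sham replicate 3, the low sham library, was within the sham range for general neuron markers (8222 CPM) and highest of the 9 for striatal markers; the part of tissue makeup in its Cx3cl1 level was not tested.

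**Figure D2:**
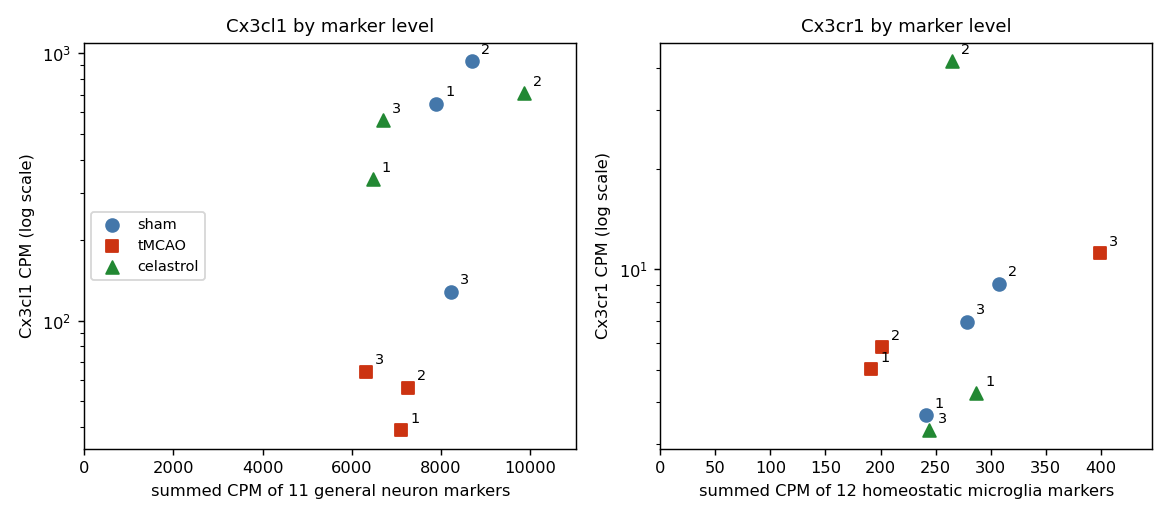
Left, Cx3cl1 in CPM (log axis) against the summed CPM of 11 general neuron markers; right, Cx3cr1 in CPM (log axis) against the summed CPM of 12 homeostatic microglia markers, each point 1 library numbered by replicate. Libraries of similar neuron marker sum differ widely in Cx3cl1, and celastrol replicate 2 is high in Cx3cr1 at a microglia marker sum of 265 CPM, inside the range of the others.

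For the receptor, 12 homeostatic microglia markers summed to 241 to 307 CPM in sham, 192 to 399 in tMCAO and 244 to 287 with celastrol. Cx3cr1 as a share of this sum was 1.52%, 2.95% and 2.51% in sham and 2.62%, 2.90% and 2.80% in tMCAO. With celastrol it was 1.49%, 15.8% and 1.35%. Within tMCAO the receptor thus kept a nearly constant share, including in replicate 3, where both Cx3cr1 and the marker sum were highest of the group. In celastrol replicate 2 the marker sum was 265 CPM, in the middle of the celastrol libraries, while Cx3cr1 stood at 42.0 CPM against 4.27 and 3.30 in the other celastrol libraries. Of the microglia list, 8 of 12 genes had a negative fold change in tMCAO against sham (median log2 -0.68) and 5 did not overlap in that direction, against a background of 11.1%. Tmem119, a surface protein restricted to microglia, stood at 20.6 ± 0.69 CPM in sham and 12.8 ± 5.11 in tMCAO. Fcrls, an Fc receptor-like protein, stood at 27.6 ± 7.35 CPM in sham and at 51.9 ± 48.7 CPM in tMCAO.

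Sums of monocyte, neutrophil and natural killer and T cell markers were not raised in celastrol replicate 2. Its sum of 4 non-classical monocyte markers was 27.2 CPM against 55.4 and 87.1 in the other celastrol libraries, and its classical monocyte (16.5 CPM), neutrophil (14.6 CPM) and natural killer and T cell (14.0 CPM) sums were the lowest of the 3 as well. Non-classical monocyte markers rested almost wholly on Ace, also an endothelial and choroid plexus gene, while Treml4 and Spn each had at most 77 counts in a group of 3 libraries. Of the 11 natural killer and T cell genes, Ncr1, Prf1 and Cd3d were at 0 in all 9 libraries. The sum of this list rested mostly on S1pr5, at 16.9 ± 5.18 CPM with celastrol where the whole sum averaged 18.7 CPM. It therefore says little about natural killer and T cells. In all 6 occluded libraries the neutrophil sum (14.6 to 41.4 CPM) was above sham (1.1 to 3.7 CPM). The broad myeloid sum of 13 genes was 214 to 253 CPM in sham, 270 to 503 in tMCAO and 337 to 405 with celastrol. The part of these cells in the receptor values was not tested beyond these sums.

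None of the 6 genes that act in or on the release of the ligand passed the adjusted threshold. Their fold changes in tMCAO against sham were all positive, in Adam10 (0.22 ± 0.24) and Timp3 (0.13 ± 0.25) by less than 1 SE, with a median log2 of 0.41, and in 4 the groups did not overlap, against 12.4% of all genes in that direction. Ctss (cathepsin S), the shedding enzyme made by microglia, was at 49.4 ± 3.06 CPM in sham and 71.3 ± 16.6 in tMCAO (log2 fold change 0.53 ± 0.17). The rhomboid-like proteins Rhbdf1 and Rhbdf2, which carry ADAM17 to the cell surface, were at 8.32 ± 1.09 and 0.904 ± 0.142 CPM in sham and at 17.2 ± 4.15 and 3.52 ± 1.299 CPM in tMCAO. The sheddases themselves stood closer together, Adam17 at 19.0 ± 1.63 and 23.3 ± 1.85 CPM and Adam10 at 86.7 ± 31.0 and 101 ± 5.42 CPM in sham and tMCAO. Timp3, which inhibits ADAM17, was at 121 ± 24.7 and 133 ± 31.9 CPM. Under celastrol none of the 6 lay wholly above or below tMCAO, as 3.73% and 4.13% of all genes did. In that comparison 5 of 6 had a negative fold change, and the median log2 was -0.09. Exons of Adam17 and Timp3 overlap genes on the other strand (Iah1 and Syn3), which makes their counts less certain.

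None of the genes that act downstream of the receptor passed the adjusted threshold. Of 17 listed, 16 were tested, 8 with a positive and 8 with a negative fold change in tMCAO against sham (median log2 0.00), and 3 lay wholly above and 4 wholly below sham (12.4% and 11.1% of all genes). Arrb1, the beta-arrestin that turns off and internalises receptors of this class, was the one furthest apart, at 280 ± 41.2 CPM in sham, 67.3 ± 15.8 in tMCAO and 83.2 ± 22.1 with celastrol (log2 fold change -2.06 ± 0.23 for tMCAO against sham, edgeR adjusted p = 0.0907). Grk2, the kinase that marks receptors for arrestin, was at 247 ± 16.7, 173 ± 7.88 and 200 ± 28.9 CPM in the same order. In celastrol against tMCAO, Arrb1 had a log2 fold change of 0.31 ± 0.22 and Grk2 0.21 ± 0.12, beside the 3.33 ± 0.64 of Cx3cl1. Among the inhibitory G protein subunits, Gnai1 was at 238 ± 18.1 CPM in sham and 187 ± 16.5 in tMCAO, and Gnai2, prominent in myeloid cells, at 127 ± 9.40 and 155 ± 24.4. The kinase Lyn, expressed in myeloid cells, was at 8.16 ± 0.873 and 16.9 ± 8.83 CPM and Akt1 at 145 ± 2.34 and 150 ± 4.17 CPM. In celastrol against tMCAO, 8 of the 16 were higher and 8 lower, 1 in each direction without overlap (3.73% of all genes higher, 4.13% lower).

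**Figure D3:**
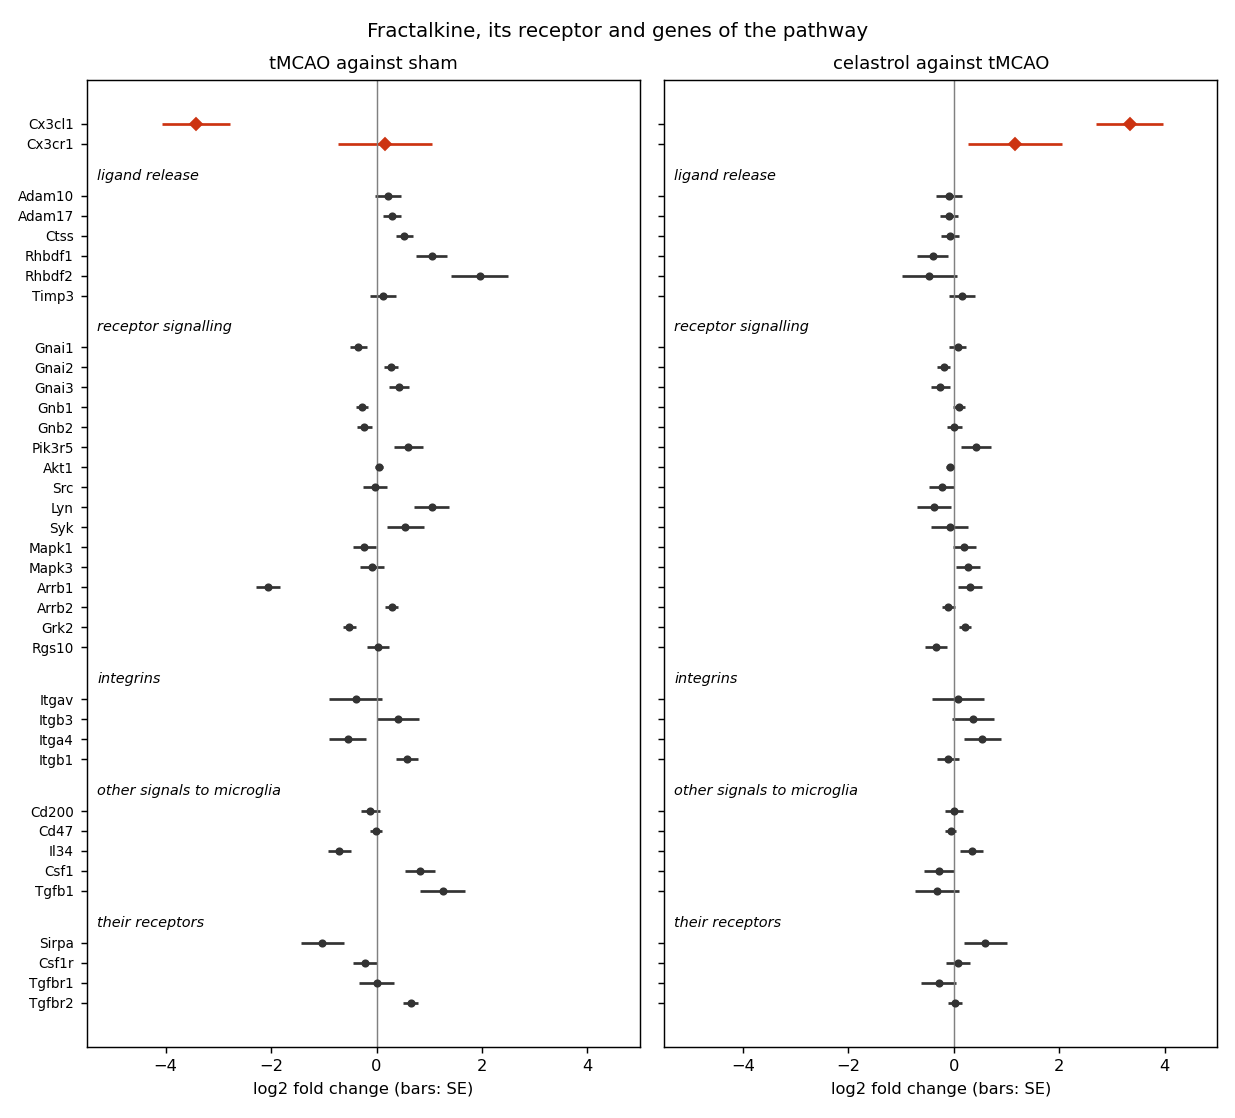
edgeR log2 fold changes (points) with standard errors (bars) for Cx3cl1 and Cx3cr1 and for the genes of ligand release, receptor signalling, integrins and other signals to microglia, in tMCAO against sham (left) and celastrol against tMCAO (right), which share the tMCAO libraries. Cx3cl1 lies at -3.42 and 3.33, and Arrb1, at -2.06 on the left, is at 0.31 on the right.

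Integrins that bind fractalkine alongside the receptor divided evenly, with 2 of 4 higher in tMCAO than in sham. Itgb1, the beta subunit of many matrix receptors, was at 74.7 ± 3.84 CPM in sham, 112 ± 22.8 in tMCAO and 103 ± 27.2 with celastrol, without overlap between sham and tMCAO. Itgav was at 98.5 ± 6.41, 74.9 ± 38.4 and 78.8 ± 43.2 CPM, with groups that overlapped. Itgb3 and Itga4 overlapped between sham and tMCAO as well. Of the 4 integrins, 1 thus lay wholly above sham and 0 wholly below, against 12.4% and 11.1% of all genes.

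Other signals from neurons and glia to microglia were listed beside the ligand. Cx3cl1 was proposed with its values known, so smaller changes in other genes than in Cx3cl1 are not read as a result. Cd200, a neuronal surface protein that quiets myeloid cells, was at 111 ± 16.7, 102 ± 13.1 and 102 ± 20.1 CPM in sham, tMCAO and celastrol (log2 fold change -0.12 ± 0.18 in tMCAO against sham). Cd47, the signal against engulfment, was at 188 ± 13.4, 186 ± 17.2 and 179 ± 13.7 CPM (-0.01 ± 0.11). Il34, the neuronal ligand of Csf1r, was at 44.7 ± 7.05 CPM in sham and 27.5 ± 7.46 in tMCAO without overlap, while Csf1, the second ligand of that receptor, was at 21.0 ± 3.46 and 37.3 ± 8.84 CPM. Tgfb1, a cytokine that maintains the homeostatic state, was at 4.94 ± 0.392 and 11.8 ± 5.89 CPM. Of these 5 signals, 2 lay wholly above and 1 wholly below sham (12.4% and 11.1% of all genes). In celastrol against tMCAO none lay wholly above or below, as 3.73% and 4.13% of all genes did.

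Of 5 receptors listed for these signals, 4 were tested, as Cd200r1 did not pass the filter. In tMCAO 1 lay wholly above sham (Tgfbr2) and 1 wholly below (Sirpa), against 12.4% and 11.1% of all genes. Sirpa, the partner of Cd47, was at 351 ± 218 CPM in sham and 172 ± 34.3 in tMCAO, and its sham libraries, like those of Cx3cl1, were spread widely (199 to 600 CPM). Csf1r was at 89.7 ± 9.47, 77.2 ± 28.1 and 82.0 ± 8.44 CPM in the 3 groups, and Tgfbr2 at 25.8 ± 1.64, 40.5 ± 5.89 and 41.1 ± 4.24 CPM. Exons of Il34, Csf1r, Lyn and Itgav overlap other genes on the opposite strand, and their values carry the same uncertainty.

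The list of 8 inflammatory mediators released by activated microglia and other cells was low in sham, with a summed level of 0.710 to 1.298 CPM against 9.02 to 67.9 in tMCAO and 2.27 to 24.2 with celastrol. Nos2 was apart from the rest, with 81 counts in sham, 132 in tMCAO and 86 with celastrol. Sham and tMCAO overlapped in Nos2 and, narrowly, in Il1b (sham up to 0.614 CPM, tMCAO from 0.609 CPM). Ccl4 and Il6 had 0 counts in all sham libraries, with 637 and 370 counts over the 3 tMCAO libraries and 303 and 311 with celastrol, where 1 library of Il6 was again at 0. The chemokines Ccl2 and Ccl3 were at 0.105 ± 0.0323 and 0.0644 ± 0.0629 CPM in sham, 13.1 ± 12.8 and 7.12 ± 4.16 in tMCAO and 4.29 ± 5.43 and 2.25 ± 2.04 with celastrol. Of the 8 genes, 4 passed the filter on low values, which a gene near 0 in sham can pass only through the occluded groups, so their shared direction is not counted as support. Microglia and infiltrating leukocytes can both make these messages, and the source was not tested.

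Each member was spread widely in 1 group, set here against all genes above a floor of abundance. The sham libraries of Cx3cl1 covered 2.86 log2 units, against a median of 0.25 for the 4687 genes with a mean of at least 50 CPM, and 14 of those genes (0.299%, Cx3cl1 included) covered as much or more. In tMCAO and celastrol it covered 0.73 and 1.06 units, reached by 13.1% and 7.10% of these genes. The celastrol libraries of Cx3cr1 covered 3.66 log2 units, against a median of 0.40 for the 12504 genes with a mean of at least 5 CPM, reached by 62 genes (0.496%). In sham and tMCAO Cx3cr1 covered 1.296 and 1.147 units, reached by 4.23% and 8.78% of these genes. The 1 high or low library, not a graded spread, made these widths, as the values by library show.

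**Figure D4:**
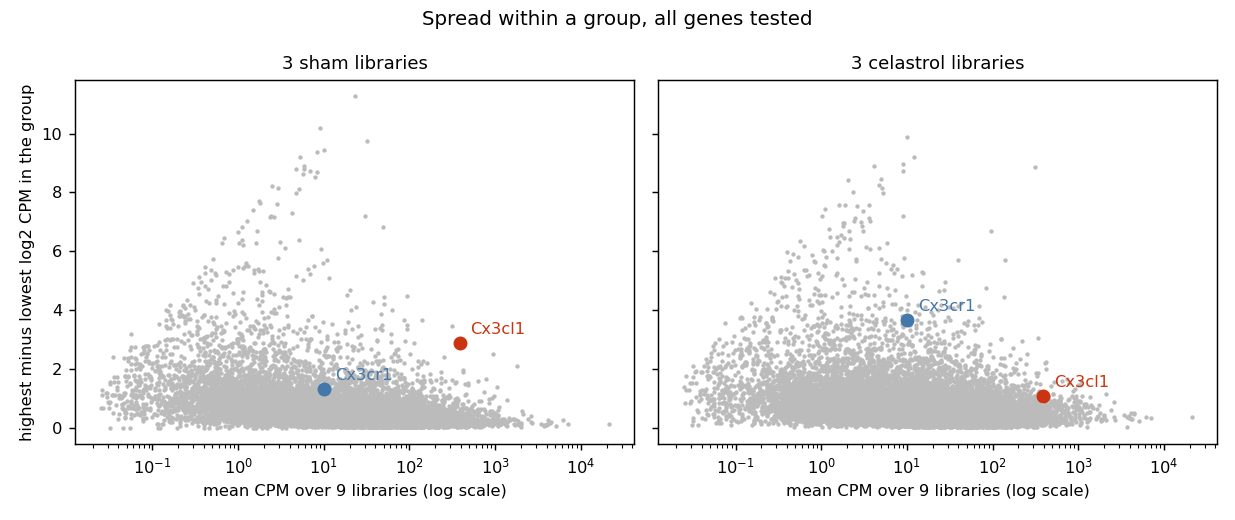
Highest minus lowest log2 CPM among the 3 sham (left) or 3 celastrol (right) libraries against the mean CPM over 9 libraries (log axis), with every gene tested as a grey point. Cx3cl1 in sham, at 2.86, and Cx3cr1 in celastrol, at 3.66, lie high among genes of similar mean CPM.

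By likeness across the 9 libraries (Pearson r of log2 CPM, a description over 12503 genes in libraries that share groups), the genes nearest to Cx3cl1 were Coq2 (r 0.92), Zfr2 (0.91), Etohd2 (0.91), Cox6c (0.91) and Eftud2 (0.91). They followed its order but not its size. Coq2 covered 0.51 log2 units and Zfr2 1.24 over the 9 libraries, where Cx3cl1 covered 4.59. Srsf2 (-0.97), Zdhhc18 (-0.94) and Slc26a10 (-0.93) ran most opposed. For Cx3cr1 the nearest were Gm13340 (0.98), 9130221H12Rik (0.93), Tmem256 (0.91), Klhl23 (0.90) and Tlk1 (0.90), and the most opposed Frmd4b (-0.97), Prr5l (-0.96) and Tcf4 (-0.96). Its whole range was 3.66 log2 units, set by celastrol replicate 2, and none of the 5 nearest genes covered 1 unit.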

How the data were processed

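Ribosome-depleted total RNA of 9 hemisphere libraries was sequenced in pairs of reads. Per the submitters' processing notes, tools included cutadapt 1.9, HISAT2 2.0.4 and StringTie 1.3.4d with build mm10, and the authors deposited estimated counts and FPKM per gene; no source used here gives the strand setting. Counts were fitted over all genes with FPKM of at least 0.5 in at least 3 libraries (16982 genes) with edgeR 4.0.16 (TMM scaling, quasi-likelihood test, 3 groups in 1 fit, Benjamini-Hochberg threshold 0.05, two-sided, R 4.3.3). Alternatives used DESeq2 1.42.0, limma 3.58.1 on log2(FPKM + a pseudocount), other scalings and filters, a replicate block and each library left out. The test was also run on simulated data whose replicates varied less than the libraries here. That run does not show how the test performs at the present spread. None of the 9 pairs of libraries within a group agreed within sampling noise. CPM are TMM-scaled; library totals of 60392960 to 75158625 limit counting error only.

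Named genes were both members, the genes of 6 pathway lists, the 3 most abundant markers of each cell type list and any at 0 throughout a group, and the 5 nearest and 3 most opposed genes by correlation (log2 CPM with a prior count of 2, mean of at least 5 CPM). The members and lists were chosen with earlier results of these data known. No protein sequence was used here. One marker that this rule names is not reported here.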

Additional observations from a re-analysis of the deposited data

How the results depend on the processing

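Cx3cl1 kept its direction under all 20 alternatives in tMCAO against sham and in celastrol against tMCAO. It passed the adjusted threshold with DESeq2 in both (-3.43 and 3.34) and without sham replicate 3 in the former. Leaving out each library in turn gave -3.90 to -2.87 and 3.08 to 3.57 (edgeR adjusted p 0.047 to 0.378 and 0.162 to 0.9999). Cx3cl1 in celastrol against sham ran from -0.56 to 0.46 when libraries were left out, changing sign without sham replicate 1 (0.01), sham replicate 2 (0.46) and celastrol replicate 1 (0.15), and was 0.31 with limma on log2(FPKM + a pseudocount) at each of 0.5, 0.1 (0.31) and 1 (0.31); the cause was not tested. Cx3cr1 ran from -0.28 to 0.47 in tMCAO against sham, negative without sham replicate 1 (-0.13) and tMCAO replicate 3 (-0.28), from -0.96 to 1.64 in celastrol against tMCAO and from -0.79 to 1.80 in celastrol against sham, negative in both without celastrol replicate 2. Counts of genes called by edgeR were 0, 0 and 1 in the 3 comparisons (tMCAO against sham, celastrol against tMCAO, celastrol against sham) and over the alternatives 0 to 836, 0 to 19 and 0 to 380. DESeq2 gave the highest (836, 19 and 380), the fit of only 2 groups gave 30, 0 and 4, and leaving out celastrol replicate 2 gave 91, 0 and 46. Where 1 library of a group was left out, the remaining pair was assumed to vary like the other groups.

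The labels name no shared litter, day or batch, so the replicate numbers were not treated as a pairing. Same-numbered libraries deviated together (r over 0.1) in 3 of 9 pairs (-0.16 to 0.20). With the number as a replicate block, Cx3cl1 gave -3.28, 3.28 and -0.00084 in the 3 comparisons and Cx3cr1 0.36, 0.42 and 0.79, no call changed, and 51, 0 and 22 genes were called. Of 9 libraries, 4 correlated best with their own number. Other scalings moved the median of all genes to at most 0.035 on the log2 scale. Depth limits neither member, since the fewest counts behind a value were 250, while 3 libraries a group limit both. The deposited counts are estimates. The part of read assignment in the abrupt values of sham replicate 3 and celastrol replicate 2, in the low level of Cx3cr1 and in the ligand to receptor ratio was not tested.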

Other observations

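The 13 other genes of at least 50 CPM whose sham libraries were as far apart as those of Cx3cl1 were of mixed kinds. Pde10a, Penk, Ttr and Slc17a6 mark the striatum, the choroid plexus or subcortical excitatory neurons. Penk stood at 47.3, 123 and 350 CPM and Pde10a at 34.8, 64.2 and 359.8 CPM in sham replicates 1, 2 and 3, highest where Cx3cl1 was lowest. Slc17a6, the vesicular glutamate transporter of thalamus and brainstem, stood at 139, 18.4 and 20.6 CPM. The clustered protocadherins Pcdhgb1 and Pcdhgb4 share exons with their neighbours and stood at 363, 16.4 and 17.4 CPM and at 35.8, 449 and 70.1 CPM. Gprasp2, at 228, 131 and 20.3 CPM, was lowest in replicate 3, as were Usf3 (32.5, 97.6 and 5.31 CPM) and Plin4 (47.3, 7.74 and 2.92 CPM). The others were Agt, Rora, Phc3 and Pdxp. These genes were chosen after their values were seen, and the source of the spread was not tested.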
